A study of Oryza sativa with 6 samples.

Results

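Among the 13343 gene loci that were reconstructed for the rice cultivar N22, 53 loci with a single isoform model rose in developing seeds under combined drought and heat stress in such a way that every stressed library lay at least 2 times above every control library. The loci were selected on their measured values. Single-isoform loci with identifiers of the reference-based format (B followed by a number) made up 9931 of the 13343 loci. Of these, 7604 had a mean of 5 to under 1000 CPM over the 6 libraries, and 53 of the 7604 reached the limit of 2 for the ratio of the lowest stressed to the highest control CPM. CPM values are counts relative to library size, scaled here with TMM factors that correct library sizes for differences in composition. Since the rise under stress chose the loci, the differences between the conditions below are a description and no test of them is given.

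The RNA came from whole developing seeds of N22, a cultivar of the subgroup aus that tolerates drought and heat, in the early grain-filling stage. Plants stood in the field in the Philippines and were either kept flooded (control, n = 3) or exposed to drought under a rainout shelter together with heat (stressed, n = 3). The cultivar and the tissue were the same in both conditions of these libraries, and drought and heat were applied only together, so that their effects cannot be told apart. The 3 libraries per condition are described as biological replicates, but whether a replicate was a plant, a plot or a pool is not given in the sources used here.

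In early grain filling, the rice seed passes from cell division to the storage of starch and protein in the endosperm, while the embryo takes shape. Water deficit raises the level of the hormone abscisic acid in plant tissues, and seeds use the same hormone to switch on late embryogenesis abundant proteins, among them the dehydrins, before they dry. Heat leads plant cells to make heat shock proteins, chaperones that keep other proteins from aggregating. The study made a functional annotation of its N22 transcripts, which was not used here, so whether any of the 53 loci belongs to these families is not given. The expression tables hold locus identifiers without gene names, and 0 of the 53 identifiers matched the RefSeq gene table of japonica rice. These identifiers come from the study's own reconstruction, so the lack of a match does not show whether japonica rice has these genes. Without gene names, the tissue could not be checked against marker genes. A seed is a mixture of endosperm, embryo and maternal layers, and in such bulk samples more cells of a type and more RNA per cell cannot be told apart.

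The 6 libraries held between 20623937 and 24625001 estimated counts. The TMM factors were 1.10, 1.13 and 1.20 in control replicates 1, 2 and 3, and 0.842, 0.884 and 0.904 in stressed replicates 1, 2 and 3. The factors therefore raise the stressed values relative to the control values, and the effect of this on the loci is given below. All pairs of replicates differed by more than counting noise (chi-square per degree of freedom of 23.3 to 90.0). Counts of the 53 loci in single libraries ranged from 44.7 to 19639, far above a count of 0, which would allow up to 3 counts or 0.122 to 0.145 CPM before TMM scaling. These limits cover counting error only.

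Together, the 53 loci took 0.268%, 0.278% and 0.185% of the counts in the control libraries and 0.801%, 0.666% and 0.597% in the stressed libraries. In TMM-scaled values, their CPM summed to 2433, 2463 and 1547 in control and to 9515, 7533 and 6602 in stressed replicates 1, 2 and 3. Control replicate 3 was the lowest and stressed replicate 1 the highest of the libraries in both measures. For the single locus, the mean rose between 2.40-fold and 6.60-fold, with a median of 3.54-fold. The rise was 2-fold to 3-fold in 14 loci, 3-fold to 4-fold in 23, 4-fold to 5-fold in 12 and more than 5-fold in 4 loci.

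**Figure D1:**
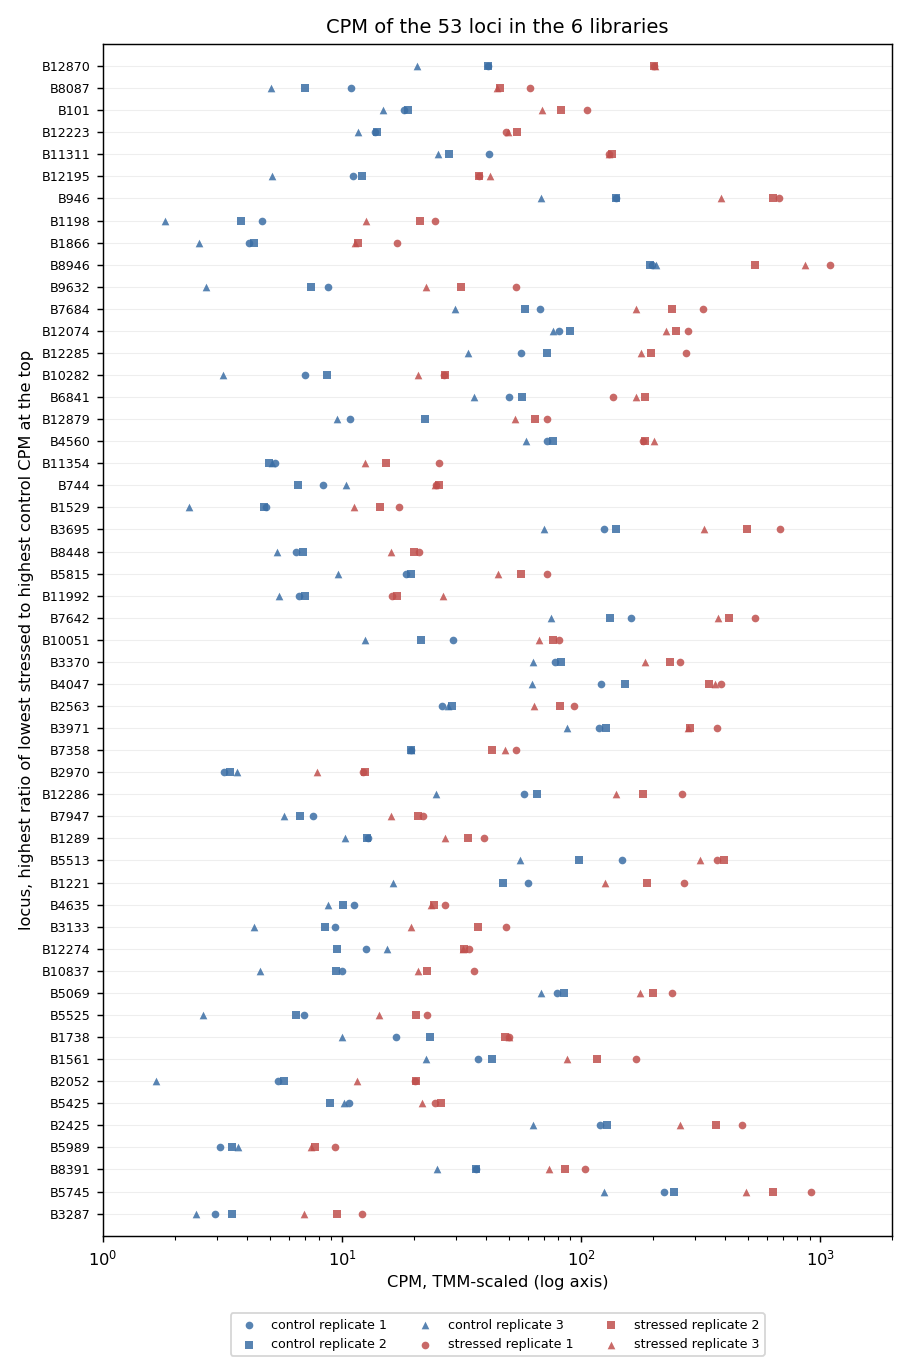
CPM (log axis) of each of the 53 loci in the 3 control libraries (blue) and the 3 stressed libraries (red), with 1 locus per line and 1 symbol per replicate. No red symbol lies left of a blue one on any line, and the control replicate 3 symbol is the lowest of its group in 45 of the 53 lines.

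In edgeR's quasi-likelihood test over all loci, all 53 were among the loci called higher under stress (adjusted p under 0.1 and log2 fold change of at least 1), where 4.81% of the 12737 loci tested were called higher. The rule used the same contrast, so nothing can be read from this count. The log2 fold changes of the 53 loci ranged from 1.26 to 2.72 with a median of 1.82, beside a median of -0.02 over all loci tested. The rule itself was met by 0.697% of the 7604 single-isoform loci of this abundance range (95% Clopper-Pearson interval 0.523% to 0.911%). This interval treats the loci as independent, although all share the same libraries, and it leaves out the spread between libraries. By abundance, the rule was met by 17 of 3674 loci with a mean of 5 to under 20 CPM. The counts were 17 of 3440 loci from 20 to under 100 CPM, and 19 of 490 loci from 100 to under 1000 CPM. The shares were 0.463%, 0.494% and 3.88%, but these means include the stressed libraries, so that the rise itself moved loci into a higher range. Of the 19 loci at 100 CPM or more, 10 had a control mean under 100 CPM. By the control mean alone, the limit was met by 29 of 3681 loci under 20 CPM (0.788%), by 15 of 3462 from 20 to under 100 CPM (0.433%), and by 9 of 461 at 100 CPM or more (1.95%).

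Loci with more than a single isoform model met the same limit in 36 of 2924 cases, or 1.23%. The opposite change, with the lowest control CPM at least 2 times the highest stressed CPM, was seen in 87 of the 7604 single-isoform loci (1.14%). Outside the abundance range, 14 single-isoform loci under 5 CPM and 4 of at least 1000 CPM also reached the ratio of 2 and were not included.

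**Figure D2:**
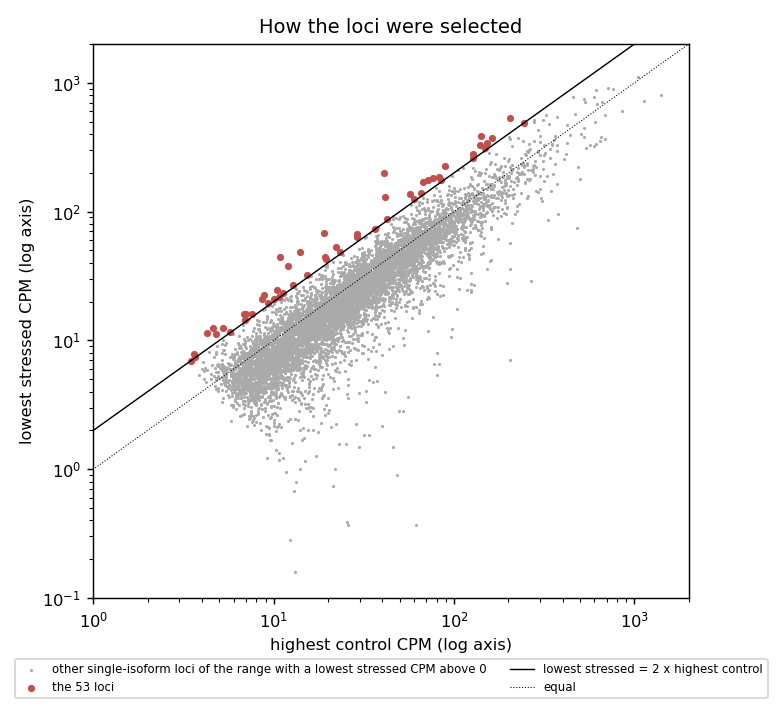
Lowest stressed CPM against highest control CPM (both log axes) for the 53 loci (red) and for the other single-isoform loci of the abundance range with a lowest stressed CPM above 0 (grey). The solid line marks the ratio of 2 that selected the loci, and the 53 loci lie on or above it.

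The limit of 2 cut through a continuous distribution. Just inside it were B8391, B5745 and B3287, with ratios of at most 2.002. Just outside were B12120 with 1.997, B6603 with 1.995 and B6648 with 1.994, whose means rose 4.46-fold, 3.24-fold and 2.43-fold. These 3 loci differ from the selected ones by the limit and not by their size of change.

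The highest ratio was found for B12870, a locus with a model of 868 bp. It had 40.8, 40.6 and 20.6 CPM in control replicates 1, 2 and 3, and 201, 201 and 203 CPM in stressed replicates 1, 2 and 3. The control level was 34.0 ± 11.6 CPM and the stressed level 202 ± 1.05 CPM (SD, n = 3 each). After TMM scaling, the stressed libraries were thus nearly equal, while control replicate 3 lay below the other control libraries. The lowest stressed library was 4.92 times the highest control library. The locus with the fourth highest ratio, B12223 of 997 bp, had 13.7, 14.0 and 11.7 CPM in control and 48.5, 54.0 and 49.3 CPM in stressed replicates 1, 2 and 3. Here the 6 libraries fell into 2 narrow groups.

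The values of B12870 and B12223 are not independent of each other. When a read fits several transcripts, kallisto divides it among them, and a locus with a single model can then have a count that is not a whole number. B12870 had such counts in 6 libraries and B12223 in 5, yet their sum was within 0.002 of a whole number in every library, as it would be if reads were divided between just these 2 loci. How many reads were divided is not shown by such sums. The sum does not depend on the division and was 54.5, 54.6 and 32.2 CPM in control and 250, 255 and 252 CPM in stressed replicates 1, 2 and 3. Its lowest stressed value was 4.57 times its highest control value.

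**Figure D3:**
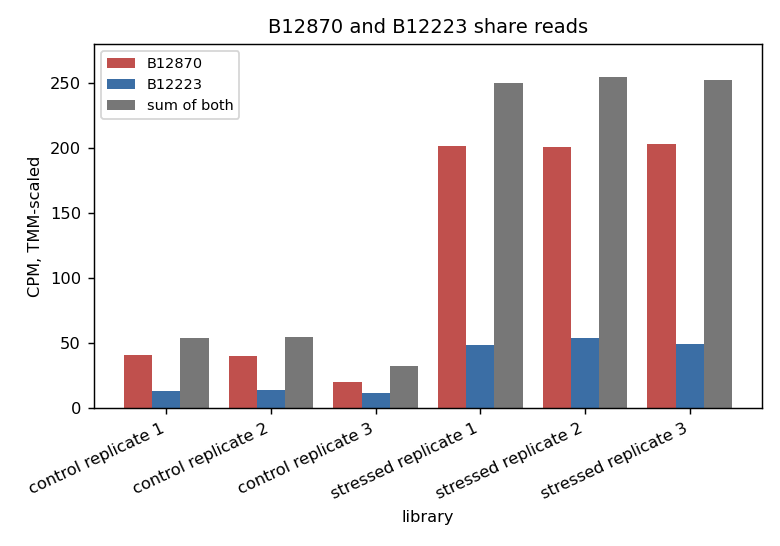
CPM of B12870, of B12223 and of their sum in each of the 6 libraries (bars from 0). The sum lies between 32.2 and 54.6 CPM in the control libraries and between 250 and 255 CPM in the stressed libraries.

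B8087, of 789 bp, had the largest fold change of the means, 6.60-fold, and the second highest ratio, 4.08. Its CPM were 10.9, 6.99 and 5.04 in control replicates 1, 2 and 3, and 60.9, 45.9 and 44.4 in stressed replicates 1, 2 and 3. Both groups had their highest value in replicate 1. B101, of 705 bp, had 18.1, 18.9 and 14.9 CPM in control and 106, 82.4 and 68.6 CPM under stress. The rise of B101 was 4.95-fold, with a wider spread in the stressed (SD 18.7) than in the control libraries (SD 2.10).

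B11311, with a longer model of 1512 bp, had 41.3, 28.1 and 25.1 CPM in control and 131, 135 and 130 CPM in stressed libraries. B12195, of 744 bp, had 11.1, 12.1 and 5.11 CPM in control and 37.5, 37.5 and 41.4 CPM in stressed libraries. Both loci resembled B12870 in that the stressed libraries were closer together than the control libraries. With B12870, B8087, B101 and B12223, these were the 6 loci with a ratio of more than 3. The remaining 47 loci had ratios of up to 2.74.

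Levels of different loci were compared in TPM, which are corrected for transcript length. The highest mean over the 6 libraries was found for B946, with a model of 624 bp and 595 TPM, followed by B3695 (738 bp, 430 TPM), B7684 (632 bp, 254 TPM) and B4047 (1053 bp, 225 TPM). The models of B946, B3695 and B7684 were shorter than the median of the 53 loci. B946 had 140, 140 and 67.8 CPM in control replicates 1, 2 and 3, and 669, 635 and 384 CPM in stressed replicates 1, 2 and 3. Replicate 3 was the lowest library in both conditions, and the stressed and control groups stayed apart by a ratio of 2.74.

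B3695 and B7684 also had their lowest value in replicate 3 of both conditions. B3695 had 124, 140 and 70.2 CPM in control and 676, 491 and 326 CPM under stress. B7684 had 67.1, 58.1 and 29.8 CPM in control and 322, 240 and 170 CPM under stress. In B4047, the control libraries spread widely with 121, 153 and 62.3 CPM, whereas the stressed libraries were close together with 384, 343 and 361 CPM.

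The longest model of the group, B8946 with 2851 bp, also had the highest mean in CPM (514). It was level in control at 197, 193 and 205 CPM and uneven under stress at 1097, 533 and 862 CPM. Its stressed replicate 2 was the lowest stressed library and still 2.60 times the highest control library. The shortest model, B12879 with 458 bp, had 10.7, 22.1 and 9.56 CPM in control and 71.9, 64.1 and 52.8 CPM under stress. Control replicate 2 stood apart from the other control libraries of this locus.

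The lowest control levels were those of B3287, B1198 and B5989. B3287 had 2.94, 3.46 and 2.45 CPM in control and 12.1, 9.54 and 6.92 CPM in stressed replicates 1, 2 and 3. B1198 had 4.61, 3.78 and 1.82 CPM in control and 24.6, 21.1 and 12.5 CPM under stress, a rise of 5.70-fold. B5989 had 3.09, 3.46 and 3.67 CPM in control and 9.38, 7.68 and 7.40 CPM under stress, the smallest rise of the 53 loci at 2.40-fold. Even these weakly expressed loci did not reach the 0 limit in any library, as the lowest count of the whole group was 44.7, in control replicate 3 of B2052.

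The spread among the stressed libraries differed widely between the 53 loci. The SD was from 0.521% to 44.9% of the mean, with a median of 18.6%, and in 12 loci it was under 10%. The smallest values belonged to B12870, B744 and B11311. These small spreads are those of TMM-scaled CPM. In TPM, stressed replicates 1, 2 and 3 of B12870 had 202, 223 and 239. Those of B744 had 20.7, 23.6 and 24.3, and those of B11311 had 69.3, 79.2 and 81.2. B744, of 1008 bp, had 8.33, 6.55 and 10.4 CPM in control and 24.6, 25.3 and 24.6 CPM under stress. The largest spreads in CPM belonged to B9632, B3133 and B11354. B9632 had 8.77, 7.38 and 2.70 CPM in control and 53.6, 31.4 and 22.4 CPM in stressed replicates 1, 2 and 3.

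B3133 had 9.33, 8.50 and 4.30 CPM in control and 48.5, 37.1 and 19.5 CPM under stress. B11354 had nearly equal control values of 5.24, 4.93 and 5.08 CPM and stressed values of 25.5, 15.3 and 12.4 CPM. In all 3 of these loci, stressed replicate 1 was the highest and stressed replicate 3 the lowest library. Among the control libraries, the SD of the 53 loci was from 0.368% to 54.3% of the mean with a median of 30.3%. For the 7551 other single-isoform loci of the abundance range, the medians were 11.3% in control and 11.6% under stress. The 279 of these that were called higher by edgeR had medians of 22.5% and 23.4%. The median control spread of the 53 loci was thus larger than that of both sets. Their median stressed spread of 18.6% was larger than that of the 7551 other loci and smaller than that of the 279. A low stressed or a high control library lowers the ratio, so the rule favours a low spread and the comparison is a description.

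This order of the replicates was shared by most of the 53 loci. Stressed replicate 1 was the highest stressed library in 39 of 53 loci (73.6%), stressed replicate 3 the lowest in 43 (81.1%), and control replicate 3 the lowest control library in 45 (84.9%). The corresponding shares among the 7551 other single-isoform loci of the range were 37.7%, 35.8% and 38.6%. In 32 of the 53 loci (60.4%), control replicate 3 was lowest and the stressed libraries were ordered 1 above 2 above 3, against 12.0% of the other loci. The rule did not refer to the order of the replicates within a condition.

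The order was not particular to the selected loci. Among the same 279 other loci called higher, stressed replicate 1 was highest in 79.9%, stressed replicate 3 lowest in 84.6% and control replicate 3 lowest in 85.3%. The stressed replicates with higher values of these loci had lower TMM factors, and control replicate 3 had the highest factor of all libraries. With library size only, stressed replicate 1 was still highest in 36 of the 53 loci and control replicate 3 lowest in 43, against 26.8% and 26.2% of the other loci. The part that the composition of the libraries has in this order was not tested.

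Control replicate 3 was lower than the mean of control replicates 1 and 2 by a median of -0.78 on the log2 scale in the 53 loci, and by -0.01 in the other loci of the range. Stressed replicate 1 exceeded stressed replicate 3 by a median of 0.48 on the log2 scale, and by 0.00179 in the other loci. Across the 53 loci, these 2 values had a Pearson correlation of -0.42 and a Spearman correlation of -0.40. All points share the same 6 libraries and loci are not independent replicates, so these correlations are a description. Across 7550 other loci, the Pearson correlation was -0.30.

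**Figure D4:**
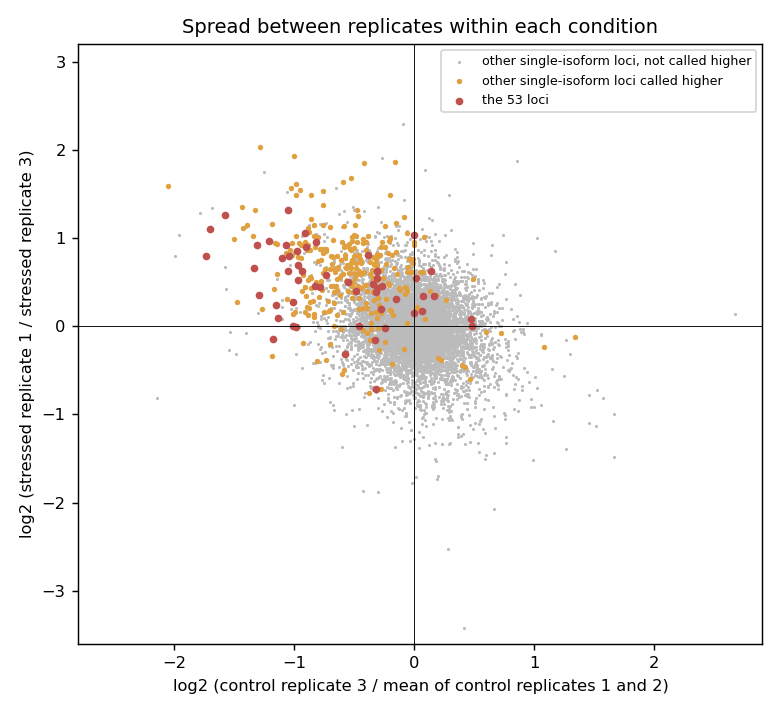
Log2 ratio of stressed replicate 1 to stressed replicate 3 against log2 ratio of control replicate 3 to the mean of control replicates 1 and 2, for the 53 loci (red), the 279 other single-isoform loci called higher (orange) and the remaining single-isoform loci of the range (grey, without 1 locus at 0 in stressed replicate 1). The median of the 53 loci is -0.78 on the horizontal and 0.48 on the vertical axis, and most orange points lie in the same upper left part.

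A few loci went against this order, and they were looked at after their values had been seen. In B12274, B2970, B5989, B744 and B8946, control replicate 3 was the highest control library. B12274 had 12.6, 9.54 and 15.4 CPM in control and 33.9, 32.5 and 32.0 CPM in stressed replicates 1, 2 and 3. In B11992, B12195, B12870, B1738 and B4560, stressed replicate 3 was the highest stressed library. B11992, of 2043 bp, had 6.58, 7.02 and 5.45 CPM in control and 16.1, 17.0 and 26.5 CPM under stress.

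The models of the 53 loci were shorter than those of the other single-isoform loci of the abundance range, a property that the rule did not use. Their median length was 1008 bp (quartiles 741 and 1484 bp), against 1449 bp (1039 and 1907 bp) for the 7551 other loci. Models of under 1000 bp made up 49.1% of the 53 loci and 23.0% of the others. The 279 other loci called higher lay in between, with a median of 1266 bp and 35.1% under 1000 bp. These are descriptions over loci, which are not replicates, and no test was made.

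The difference in length was present in each range of mean abundance. From 5 to under 20 CPM, the median was 1008 bp for 17 of the loci and 1290 bp for 3657 others. From 20 to under 100 CPM, it was 997 bp for 17 loci and 1607 bp for 3423 others, and from 100 to under 1000 CPM, 1046 bp for 19 loci and 1770 bp for 471 others. In the same order of ranges, but by the control mean, the medians were 1008, 939 and 1484 bp for 29, 15 and 9 of the loci, and 1291.5, 1602 and 1781.5 bp for the others. The models came from full-length sequencing of pooled N22 RNA, and the tables do not show whether a short model is a complete transcript. The identifiers also give the strand of each model in the N22 genome, and 27 of the 53 loci were on the plus and 26 on the minus strand.

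**Figure D5:**
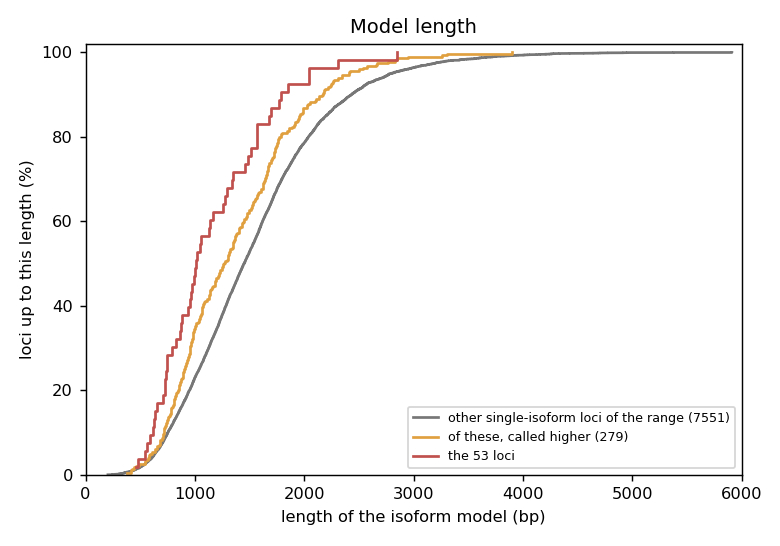
Cumulative share of loci (%) up to a given length of the isoform model (bp) for the 53 loci (red), the 7551 other single-isoform loci of the abundance range (grey) and the 279 of these that were called higher (orange). The red curve rises first, with medians of 1008 bp for the 53 loci, 1266 bp for the orange and 1449 bp for the grey curve.

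Loci with counts that were not whole made up a larger share of the 53 loci than of the other loci. In 40 of the 53 loci (75.5%), the estimated counts were whole numbers in all 6 libraries (within 0.01), so that no divided read was visible. The share was 90.8% for the other loci of the range and 92.5% for the 279 of these called higher. The sets were not matched for abundance. The 13 loci with divided reads included 5 of the 6 loci with the highest ratios, all except B12195. In B8087 and B11311, 1 of the 6 libraries had a count that was not whole. For such loci, the level of the single locus depends on how kallisto divided the reads.

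Besides B12870 and B12223, 2 further loci had sums with another locus that were whole in every library. B11992 shared reads with B12570, a single-isoform locus with 10.3, 9.98 and 7.52 CPM in control and 24.9, 17.5 and 25.7 CPM under stress. The sum of both was 16.9, 17.0 and 13.0 CPM in control and 41.0, 34.5 and 52.2 CPM under stress, and its ratio of 2.03 was lower than that of B11992 alone (2.30). B5525, of 590 bp, shared reads with B12932, and their sum was 10.6, 8.36 and 3.89 CPM in control and 36.4, 31.2 and 21.4 CPM under stress. The ratio of this sum was 2.02, close to the 2.06 of B5525 alone, so that both sums still met the limit of 2.

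A single pair of the 53 loci, B12285 and B12286, had adjacent locus numbers. B12285, of 951 bp, had 56.0, 71.9 and 33.5 CPM in control and 275, 196 and 177 CPM in stressed replicates 1, 2 and 3. B12286, of 871 bp, had 57.7, 65.2 and 24.8 CPM in control and 264, 182 and 139 CPM under stress. The 2 loci thus had nearly the same level and the same order of libraries. Both were on the minus strand and had counts that were not whole, in 3 libraries for B12285 and in 6 for B12286.

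The next numbers belong to B12287, with 3 isoform models, and B12288, with 10. The study annotates B12288 as the dehydrin gene RAB21. Both also lie on the minus strand and had higher values in all stressed libraries. B12287 had 155, 195 and 81.0 CPM in control and 885, 614 and 467 CPM under stress. B12288 had 1316, 1163 and 795 CPM in control and 3882, 3093 and 2255 CPM under stress. The sources used here hold no annotation of B12285 and B12286, and whether locus numbers follow the position in the genome is not stated in them. Over all 53 loci, 6 of 101 tested loci with an adjacent number that were not themselves selected were called higher (5.94%), close to the 4.81% of all loci tested. Among these 6 was B11355, on the opposite strand to its neighbour B11354. Both loci had whole counts in all 6 libraries, so that no read divided between them was visible.

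Which loci are selected depends on the scaling of the libraries. With library size only, 12 of the 53 loci met the limit of 2 and no other locus did. These were B101, B11311, B1198, B12074, B12195, B12223, B12870, B1866, B7684, B8087, B946 and B9632. In TPM, 10 of the 53 loci met it, all of them among these 12, together with 1 further locus. All 53 loci had their 3 stressed libraries above their 3 control libraries in TPM. They had been chosen for a ratio of at least 2 from the same counts, so this is no independent check. The median log2 fold change of all loci tested was -0.02 with TMM factors and -0.40 with library size only. That of the 53 loci was 1.82 and 1.45. Scaling multiplies all loci of a library by the same factor, so both medians had to shift by nearly the same amount. With TMM factors, 613 loci were called higher and 666 lower, and with library size only, 246 and 1528.

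The number of loci also depended on single libraries, since the rule asks for the lowest of 3 and the highest of 3 values. Without control replicate 1 it was 94, without control replicate 2 it was 83 and without stressed replicate 3 it was 156. Without control replicate 3, stressed replicate 1 or stressed replicate 2, it was 65, 58 and 61. All 53 loci remained selected in each of these cases, except for B3287, which was lost without control replicate 1. Without a library, the ratio of a locus can fall only through recomputed TMM factors, so this retention followed largely from the rule.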

How the data were processed

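RNA-Seq libraries of developing N22 seeds (3 control, 3 stressed) were quantified by the authors with kallisto v0.45 against their reconstructed N22 transcriptome. The authors deposited estimated counts per isoform model and per gene locus, and TPM values, which kallisto scales by effective length. Both tables held the same counts (largest difference 4.66e-10). The strand setting and read trimming are not given in the sources used here.

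Estimated counts per locus were rounded and scaled with TMM factors over all loci. Loci were tested with edgeR 4.0.16 in R 4.3.3 (quasi-likelihood test with robust dispersions and Benjamini-Hochberg adjustment, after filterByExpr at 10 counts) and called at an adjusted p under 0.1 and a log2 fold change of at least 1. A count was taken as whole within 0.01, and the sum of 2 loci within 0.03, in loci with divided reads in at least 4 libraries. Alternatives were DESeq2 1.42.0, limma 3.58.1 on the log2 of TPM with a pseudocount of 1 or 0.1, other scaling, filters and limits, a replicate block, and leaving out each library.

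Named loci were set by a rule: the 6 highest ratios, the 4 highest mean TPM, the 3 largest and 3 smallest stressed spreads, the 3 lowest control means, the longest and shortest model, and 3 loci on each side of the limit. Others were named after their values were seen. The members and rules were chosen with earlier results of these data known. P-values would measure only the spread between these samples. Each column of values in the tables could be assigned to a library (0 others).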

Additional observations from a re-analysis of the deposited data

How the results depend on the processing

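The number of selected loci, 53 in the report, was 12 with library size only, 11 in TPM, 247 at a ratio of at least 1.5, 6 at a ratio of at least 3, and 89 when loci with any number of isoform models were taken. Leaving out a library gave 58 to 156. The share of single-isoform loci of the range was 0.157% with library size only, 0.147% in TPM, 3.25% and 0.0789% at ratios of 1.5 and 3, and 0.756% to 2.04% when a library was left out. The median model length was 807.5 bp with library size only, 789 bp in TPM and 828.5 bp at a ratio of 3. The median stressed spread was 13.4% in TPM, 5.88% at a ratio of 3, and 13.7% to 21.95% when a library was left out.

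The number of loci called higher, 613 with edgeR, was 246 with library size only, 156 and 186 with limma on log2(TPM + 1) and log2(TPM + 0.1), 61 in edgeR's test against a minimum log2 fold change of 1, and 2501 at the adjusted p alone. In the test against a minimum, 31 of the 53 loci were called, since the others were not shown to exceed this limit. With library size only, 49 of the 53 were called, and with limma 41 and 44. The median log2 fold change of the 53 loci was 1.45 with library size only, and 1.35 and 1.39 with limma. In TPM and with library size only, values are not corrected for composition, and apart from this the cause was not tested. For the 21 selected loci named by rule, the 315 log2 fold changes under the alternatives ranged from 0.64 to 3.06. Of these, 6 values fell below a threshold. All were positive, but the loci had been chosen for their rise in the same data, so the sign is no check of it.

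Same-numbered control and stressed replicates were not treated as pairs. Their deviations from the condition means correlated with 0.18, 0.03 and 0.27 across 12737 loci. Control replicates 1 and 3 correlated best with the stressed replicate of the same number, but control replicate 2 with stressed replicate 1 (0.13). The correlation was -0.17 for control replicate 1 with stressed replicate 3, and -0.26 for control replicate 3 with stressed replicate 1. With the replicate block, 621 loci were called higher, the 53 loci among them, with a median log2 fold change of 1.87.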
